A study of Mus musculus with 6 samples.

Results

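The genes described here are 35 markers and products of the supporting cells of the pancreatic islet: pericytes, stellate cells and fibroblasts, the contractile proteins of mural cells, and noncollagen proteins of the extracellular matrix. They were found by name in the deposited table, as probe sets annotated with that gene symbol alone. Of the 35, 33 were measured, among 22180 genes in all: 8 pericyte and fibroblast genes, 5 contractile genes and 20 of 22 matrix genes. Fbn1 had no probe set with its symbol alone, and Loxl2 shared its 2 probe sets with other symbols, so neither was analysed here.

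Pericytes are mural cells wrapped around capillaries. They signal with the endothelium through PDGF-B, which endothelial cells release and the receptor PDGFRβ on pericytes binds. Islets are densely vascularised, and pericytes, stellate cells and fibroblasts lay down the matrix that surrounds their vessels and endocrine cells. When such cells become myofibroblast-like, they make more smooth muscle actin, fibronectin and periostin, a program that TGF-β is known to drive.

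The series compared islets of mice aged 5 weeks on the C57BL/6J background, with 3 Affymetrix arrays per genotype. The wildtype group consisted of Sel1L f/f littermates, and the Sel1L-deficient group of Sel1LIns1 mice, in which Ins1Cre, a Cre recombinase placed at the Ins1 locus, deletes the floxed Sel1l allele in β cells. Both groups therefore carried the floxed allele, only the deficient group carried Cre, and the supporting cells described here were not the target of the deletion. Sel1L is the adaptor of the HRD1 ubiquitin ligase in ER-associated degradation, and the series title refers to TGF-β signalling and the identity of β cells. All mice received regular chow, and islets were picked by hand and kept overnight in culture before RNA was extracted. How many animals each array pooled is not given in the labels, so the p-values measure the spread between these 3 and 3 samples, which may be technical.

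Values are log2 RMA expression values as deposited, with array medians from 3.08 to 3.16. Islet hormone genes stood near the top of the scale, with Gcg at 12.60 ± 0.05 and Sst at 12.50 ± 0.06 (SD, n = 3) in wildtype. Sel1l was lower on all 3 Sel1L-deficient arrays (7.65 to 7.73) than on any wildtype array (8.46 to 8.76; limma, adjusted p = 0.0312). The labels give female for all 6 samples, yet replicate 3 of each genotype carried Y-linked transcripts (Kdm5d, Eif2s3y and Uty at 5.39 to 7.31, against 1.20 to 2.07 elsewhere) and had Xist at 2.93 and 3.08 against 9.93 to 10.38. These 2 arrays also held the most acinar RNA. The acinar list (5 of 7 genes measured, none below the array medians) had a mean log2 level of 9.70 and 9.57 there and of 6.97 to 8.63 on the other 4. A gene whose mean lay below the highest array median in both groups is called dim here, since the table has no detection call. For scale, the means of 1105 olfactory receptor genes, mostly silent in islets, had a median of 1.56 and a 95th percentile of 2.49.

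The contractile genes Acta2 and Myl9 are shown with the 250 bases before their gene start, because the serum response factor that drives smooth muscle genes binds the CArG box in such promoters, and because they mark the extremes of spread among the contractile genes. Sequences are from RefSeq on GRCm38.p6, 5′ to 3′ on the gene's strand. Capitals mark matches to the CArG box with up to 1 mismatch over its 10 bases, on either strand since the motif is its own reverse complement. The Acta2 window is chr19:34255374-34255623 on the minus strand and the Myl9 window is chr2:156775214-156775463 on the plus strand.
Acta2: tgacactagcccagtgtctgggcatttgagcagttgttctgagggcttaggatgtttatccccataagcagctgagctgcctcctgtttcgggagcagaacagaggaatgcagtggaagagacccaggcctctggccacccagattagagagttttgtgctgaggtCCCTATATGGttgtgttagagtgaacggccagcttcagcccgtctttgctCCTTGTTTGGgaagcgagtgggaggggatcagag
Myl9: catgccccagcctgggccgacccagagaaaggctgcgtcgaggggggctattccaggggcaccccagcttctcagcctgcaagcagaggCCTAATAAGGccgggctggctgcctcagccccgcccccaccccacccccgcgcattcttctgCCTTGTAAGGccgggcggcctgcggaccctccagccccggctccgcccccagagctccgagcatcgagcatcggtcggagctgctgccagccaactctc
The first match in Myl9, CCTAATAAGG, is exact and lies 161 to 152 bases before the start, while the other, CCTTGTAAGG, and both in Acta2, CCCTATATGG and CCTTGTTTGG, carry 1 mismatch. An exact CArG box was present in this window in 1.62% of 27025 genes and a match with up to 1 mismatch in 21.1%. Of the 3 contractile genes matched to a promoter (Acta2, Myl9 and Cnn1), 1 had an exact match and 2 had a match with up to 1 mismatch. Among the 20 of 35 genes with a promoter in the table, 6 had a match with up to 1 mismatch. A match describes the letters only, and the factor's own gene, Srf, had group means of 6.74 ± 0.02 for wildtype and 6.72 ± 0.27 for deficient islets (SD, n = 3 each).

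None of the 33 measured genes passed the threshold of an adjusted p under 0.05 (limma, Benjamini-Hochberg over all genes), which 0.243% of all genes passed (20 genes or 0.0902% higher, and 34 lower, in Sel1L-deficient islets). Most were nonetheless slightly higher in Sel1L-deficient islets. The 33 were chosen with earlier results of these data known. The shares set beside those of all genes are therefore a description, without a test. The log2 difference, Sel1L-deficient minus wildtype, was above 0 in 23 of 33, where 50.1% of all genes had a difference above 0. Its median was 0.16 over the 33 and 0.00044 over all genes. Differences ranged from -0.17 for Cnn1 to 0.72 for Rgs5. At an unadjusted p under 0.05 there were 5 genes (Rgs5, Myh11, Dcn, Lum and Sparc), all higher in Sel1L-deficient islets, or 15.2% of the 33. Across all genes 9.48% had such a p in either direction and 4.45% in the higher direction. Of the 25 members with a mean above the highest array median, 20 had a difference above 0 and 4 were higher at an unadjusted p under 0.05, beside 45.7% and 5.46% of the 11913 genes above it. The smallest adjusted p among the 33 was 0.21, for Lum.

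In 5 genes (Myh11, Myl9, Dcn, Lum and Sparc) all 3 Sel1L-deficient arrays lay above all 3 wildtype arrays, as they did in 7.22% of all genes. That held for 4 of the 25 brighter members, beside 8.24% of the brighter genes. The reverse order occurred in 0 of 33, against 7.84% of all genes. Dim genes numbered 7 of 33: Tcf21, Fap, Cnn1, Lum, Ogn, Eln and Lox. Only Cnn1 had both means below the 95th percentile of olfactory receptor genes. In whole islets, more supporting cells and more RNA per cell cannot be told apart.

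**Figure D1:**
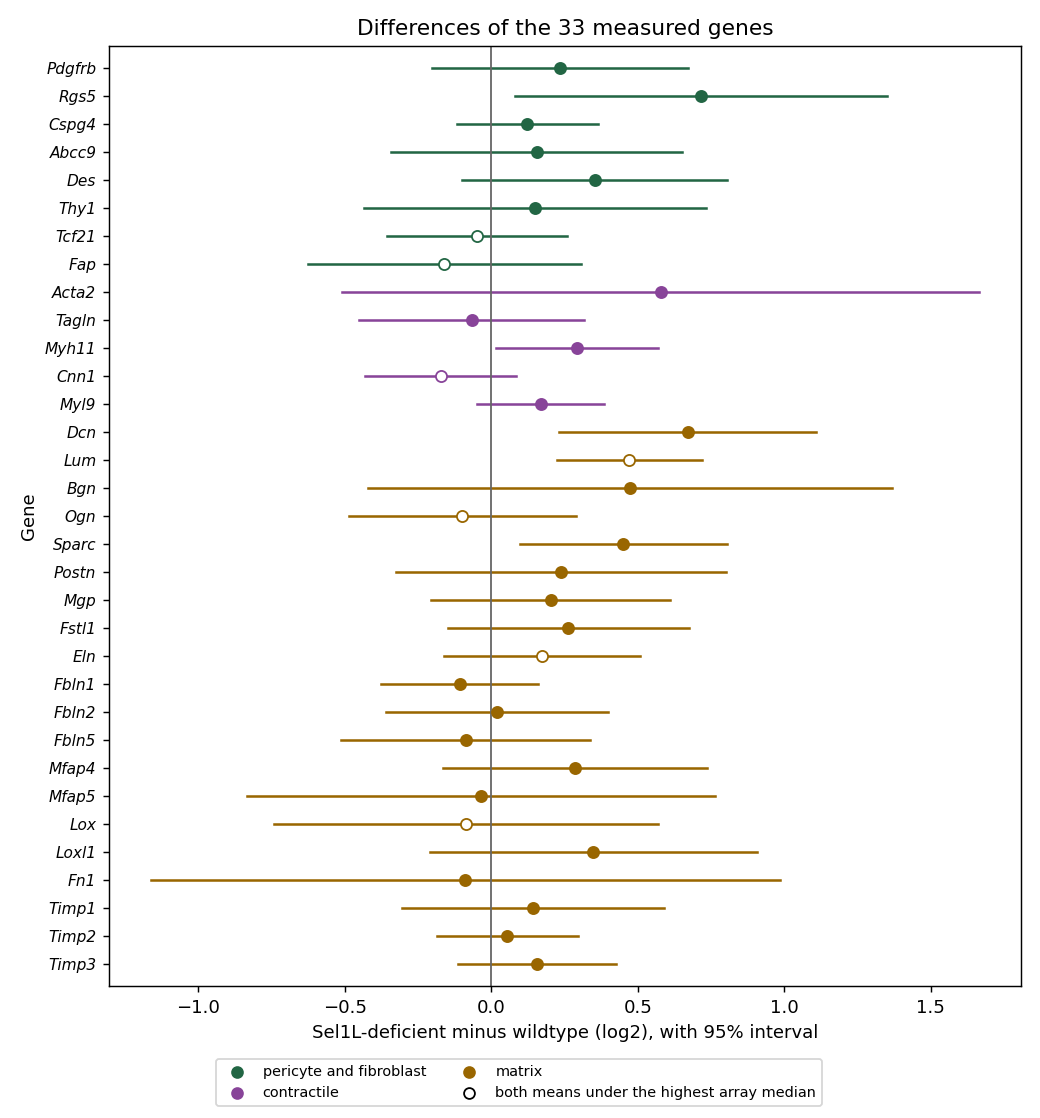
Log2 differences (Sel1L-deficient minus wildtype) of the 33 measured genes on the horizontal axis, with 95% intervals from limma, coloured by gene group and open where both group means lay below the highest array median. The intervals of Rgs5, Myh11, Dcn, Lum and Sparc lie above 0, and the other 28 include it.

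All 5 pericyte and stellate genes had a higher mean in Sel1L-deficient islets, with a median difference of 0.24. Their mean log2 level was 4.94 to 4.98 on the wildtype arrays and 5.14 to 5.51 on the Sel1L-deficient arrays, without overlap. Rgs5 contributed most to that gap, and on the probe sets used 0 of these genes separated the groups or passed the threshold. The trait was not particular to them. Endothelial markers (at most 6.06 in wildtype, at least 6.08 in deficient islets) and other noncollagen matrix genes (4.43 and 4.51) separated too. The contractile, matrix and leukocyte lists overlapped. How often lists drawn from all genes separate in this way was not tested. Rgs5, a regulator of G-protein signalling that marks pericytes, had the largest difference of the 33. It read 6.16, 5.81 and 6.88 on the wildtype arrays and 6.85, 6.73 and 7.41 on the Sel1L-deficient arrays. Wildtype replicate 3 exceeded Sel1L-deficient replicates 1 and 2, so the groups overlapped. The difference was 0.72 ± 0.28 (SE), or 1.64-fold (limma adjusted p = 0.461). A dimmer Rgs5 probe set gave 4.30, 4.21 and 4.50 against 4.75, 5.10 and 5.22, with no overlap. Its difference was 0.69 ± 0.15 (limma adjusted p = 0.192 over all 23521 probe sets with 1 symbol), so both probe sets gave a like size and neither passed.

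Pdgfrb, the PDGF-B receptor that recruits pericytes, read 6.57, 6.73 and 6.14 in wildtype and 7.01, 6.70 and 6.44 in Sel1L-deficient islets. The highest array was deficient and the lowest wildtype, but the middle values interleaved. The difference of 0.24 had a 95% interval of -0.20 to 0.67. Leaving out 1 array gave 0.07 (without wildtype replicate 3) to 0.37 (without Sel1L-deficient replicate 3). Cspg4, the NG2 proteoglycan of pericytes, differed by 0.12 (95% interval -0.12 to 0.36). Abcc9, the SUR2 subunit of vascular potassium channels, and Des, the muscle intermediate filament desmin, differed by 0.15 and 0.35. In both, Sel1L-deficient replicate 1 was the highest of the 6 arrays, at 5.21 for Abcc9 and 4.05 for Des. Without it Abcc9 differed by -0.11 and Des by 0.14.

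Fibroblast genes showed no common direction. Thy1, a surface glycoprotein of fibroblasts and neurons, read 3.09, 3.63 and 4.14 in wildtype and 3.86, 3.98 and 3.46 in Sel1L-deficient islets. The wildtype arrays spanned the deficient ones. The difference of 0.15 (95% interval -0.43 to 0.73) became -0.11 and 0.41 when wildtype replicates 1 and 3 were omitted in turn. Fap, the serine protease fibroblast activation protein, was dim, at 3.04, 2.97 and 2.42 against 2.94, 2.35 and 2.67, with overlapping groups and a difference of -0.16. It was -0.01 without Sel1L-deficient replicate 2 and -0.36 without wildtype replicate 3. Tcf21, a transcription factor of mesenchymal progenitors, was also dim, with a difference of -0.05. That became 0.084 without wildtype replicate 3.

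**Figure D2:**
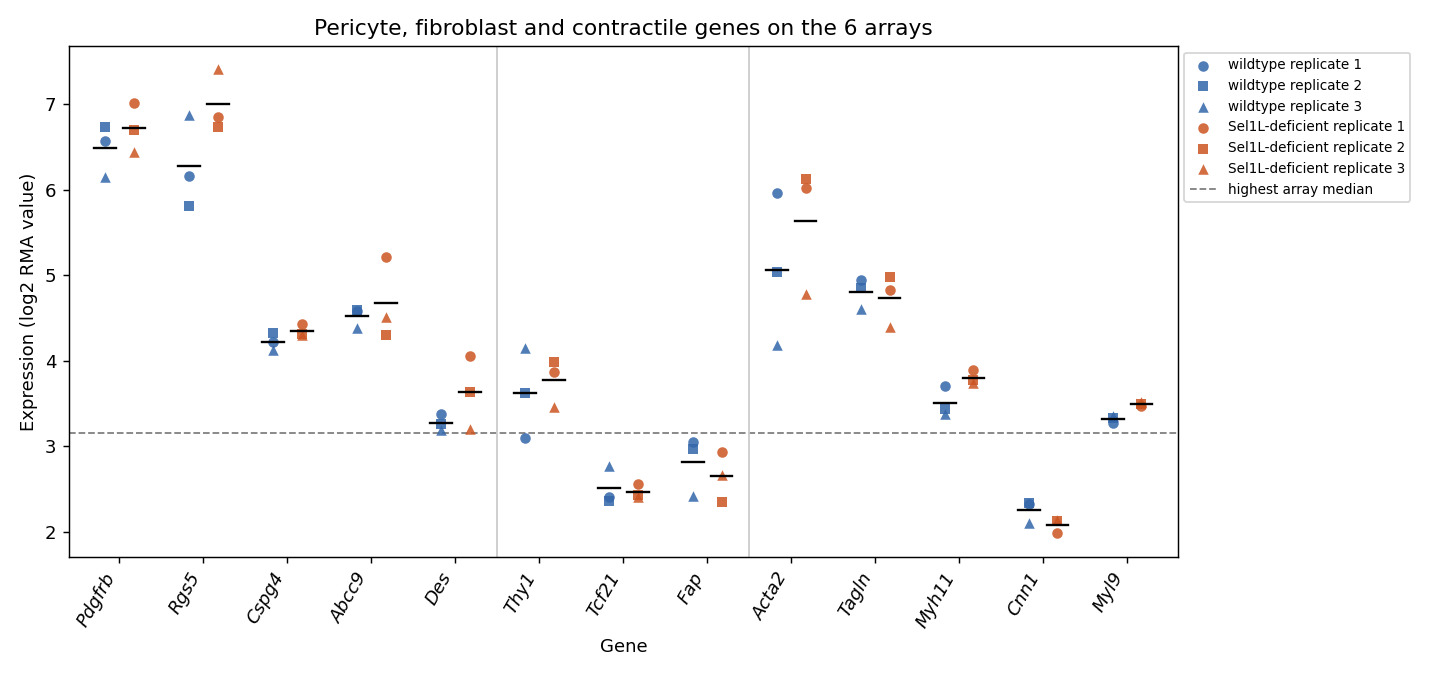
Log2 RMA values (vertical axis) of the 13 pericyte, fibroblast and contractile genes on each array, wildtype in blue and Sel1L-deficient in orange, with group means as bars and replicate numbers as symbols. Acta2 spreads from 4.18 to 6.12 across both groups, while Myl9 stays between 3.28 and 3.51 with the deficient arrays above.

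Contractile genes differed in how widely they varied between replicates. Their median difference was 0.17 over 5 genes, of which 3 were higher in Sel1L-deficient islets. Acta2, smooth muscle α-actin, read 5.96, 5.04 and 4.18 in wildtype and 6.02, 6.12 and 4.77 in Sel1L-deficient islets. Replicate 3 was the lowest array in both genotypes. The difference of 0.58 spanned -0.51 to 1.66 in its 95% interval (limma adjusted p = 0.776). Omitting wildtype replicate 3 gave 0.14 and omitting wildtype replicate 1 gave 1.03, while omitting Sel1L-deficient replicates 2 and 3 in turn gave 0.34 and 1.01. Tagln, the actin-binding protein SM22α, read 4.95, 4.85 and 4.60 against 4.82, 4.98 and 4.40. These overlapped throughout, with a difference of -0.07 (interval -0.45 to 0.32) that took the other sign without Sel1L-deficient replicate 3 (0.10) and without wildtype replicate 1 (0.01).

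Myh11, the smooth muscle myosin heavy chain, read 3.71, 3.43 and 3.38 in wildtype and 3.89, 3.77 and 3.74 in Sel1L-deficient islets. All deficient arrays lay above all wildtype arrays, by a difference of 0.29 ± 0.12 (SE), or 1.23-fold (limma adjusted p = 0.493). Myl9, a regulatory myosin light chain, read 3.28, 3.33 and 3.35 against 3.47, 3.49 and 3.51, also without overlap. Its difference of 0.17 ± 0.09 (SE; 95% interval -0.05 to 0.38) had a limma adjusted p of 0.65, and it stayed between 0.15 and 0.19 whichever array was left out. The group means of Myl9, 3.32 and 3.49, lay not far above the highest array median of 3.16. Cnn1, calponin, was dim, with a difference of -0.17 and an interval of -0.43 to 0.09.

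Small leucine-rich proteoglycans, which bind collagen fibrils, held the 2 genes with the smallest p-values of the 33. Dcn, decorin, read 4.77, 4.65 and 4.51 in wildtype and 5.11, 5.06 and 5.77 in Sel1L-deficient islets. No deficient array was as low as a wildtype one, and Sel1L-deficient replicate 3 stood above the other 2. The difference was 0.67 ± 0.19 (SE), or 1.59-fold (limma adjusted p = 0.321), and 0.44 without that array. Lum, lumican, was dim, at 2.34, 2.28 and 2.30 against 2.65, 2.92 and 2.76. Its groups did not overlap, with a difference of 0.47 ± 0.11 (SE; limma adjusted p = 0.21). The wildtype mean of 2.31 lay below the 95th percentile of olfactory receptor genes, 2.49, and the deficient mean of 2.78 above it. Both means lay below the array medians, so the size is not exact.

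Bgn, biglycan, read 8.99, 9.08 and 7.76 in wildtype and 9.52, 9.34 and 8.41 in Sel1L-deficient islets. Replicate 3 was lowest in both genotypes, by more than the genotypes differed. The difference of 0.47 spanned -0.42 to 1.37 in its 95% interval (limma adjusted p = 0.777). Omitting replicate 3 gave 0.05 where the wildtype array was dropped and 0.81 where the deficient one was, and omitting Sel1L-deficient replicate 1 or wildtype replicate 2 gave 0.26 or 0.71. A dimmer Bgn probe set gave 0.49 ± 0.34 (SE). Ogn, osteoglycin, was dim and differed by -0.10. The mean log2 level of these 4 proteoglycans was 4.30 to 4.82 on the wildtype arrays and 4.94 to 5.06 on the deficient arrays, without overlap. Dcn contributed most to that gap, 2 of the 4 genes were dim, and Bgn and Ogn each overlapped between genotypes. Other lists separated too, among them endothelial markers and other noncollagen matrix genes, while the whole matrix list overlapped. How often lists drawn from all genes separate in this way was not tested.

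The 4 matricellular and secreted regulators were all higher on average in Sel1L-deficient islets, with a median difference of 0.25. Sparc, osteonectin, a collagen-binding protein also made by endothelial cells, read 6.67, 7.10 and 6.54 in wildtype and 7.16, 7.33 and 7.18 in Sel1L-deficient islets. All deficient arrays lay above all wildtype arrays, the nearest pair being wildtype replicate 2 and Sel1L-deficient replicate 1. The difference was 0.45 ± 0.15 (SE), or 1.37-fold (limma adjusted p = 0.4). Mgp, matrix Gla protein, an inhibitor of calcification, read 8.01, 7.27 and 7.49 against 7.73, 7.81 and 7.85. Wildtype replicate 1 was the highest of all 6, so the groups overlapped, and the difference of 0.20 became 0.41 without that array and 0.04 without wildtype replicate 2. Postn, periostin, differed by 0.24, with 0.04 to 0.47 when wildtype replicates 3 and 1 were left out in turn. Fstl1, a secreted follistatin-like protein, differed by 0.26, and by 0.09 without wildtype replicate 3.

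Proteins of elastic fibres showed no common direction, with 3 of 6 above 0 and a median difference of -0.0069. Fbln2, fibulin-2, read 4.28, 4.12 and 4.04 against 4.50, 4.14 and 3.87, for a difference of 0.02 (95% interval -0.36 to 0.40). It overlapped fully. Mfap5, a microfibril glycoprotein, read 4.51, 3.86 and 2.98 in wildtype against 3.38, 4.06 and 3.82. The wildtype arrays alone covered the whole deficient range, and the difference of -0.03 had an interval of -0.83 to 0.76. Fbln1 and Fbln5, 2 further fibulins, differed by -0.11 and -0.09, the dim elastin gene Eln by 0.17 and Mfap4 by 0.29. Mfap4 differed by 0.09 without wildtype replicate 3.

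Lysyl oxidases crosslink collagen and elastin. Loxl1 read 4.81, 4.43 and 3.97 in wildtype and 5.03, 4.91 and 4.32 in Sel1L-deficient islets. Sel1L-deficient replicate 3 lay within the wildtype range, and the difference of 0.35 (limma adjusted p = 0.733) was 0.13 without wildtype replicate 3. Lox was dim by its means, at 3.69, 2.80 and 2.40 against 2.92, 3.00 and 2.70. Its highest and lowest arrays were both wildtype, and the difference of -0.09 became 0.28 without wildtype replicate 1. Fn1, fibronectin, had the widest range of the 33, at 6.72, 6.25 and 4.78 in wildtype against 6.41, 5.74 and 5.34. Replicate 1 was highest and replicate 3 lowest in both genotypes. The difference of -0.09 had an interval of -1.16 to 0.99. Omitting wildtype replicates 3 and 1 in turn gave -0.66 and 0.31, so these arrays do not settle a direction for fibronectin.

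The 3 tissue inhibitors of metalloproteinases, which restrain matrix breakdown, had small differences above 0. Timp2 read 5.70, 5.87 and 5.69 in wildtype against 5.84, 5.87 and 5.73, with a difference of 0.06 and an interval of -0.19 to 0.30. Timp3 read 6.08, 6.07 and 6.28 against 6.14, 6.37 and 6.39, with a difference of 0.16 (interval -0.11 to 0.43). Both overlapped between genotypes. Timp1 differed by 0.14, and by -0.042 without wildtype replicate 3.

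**Figure D3:**
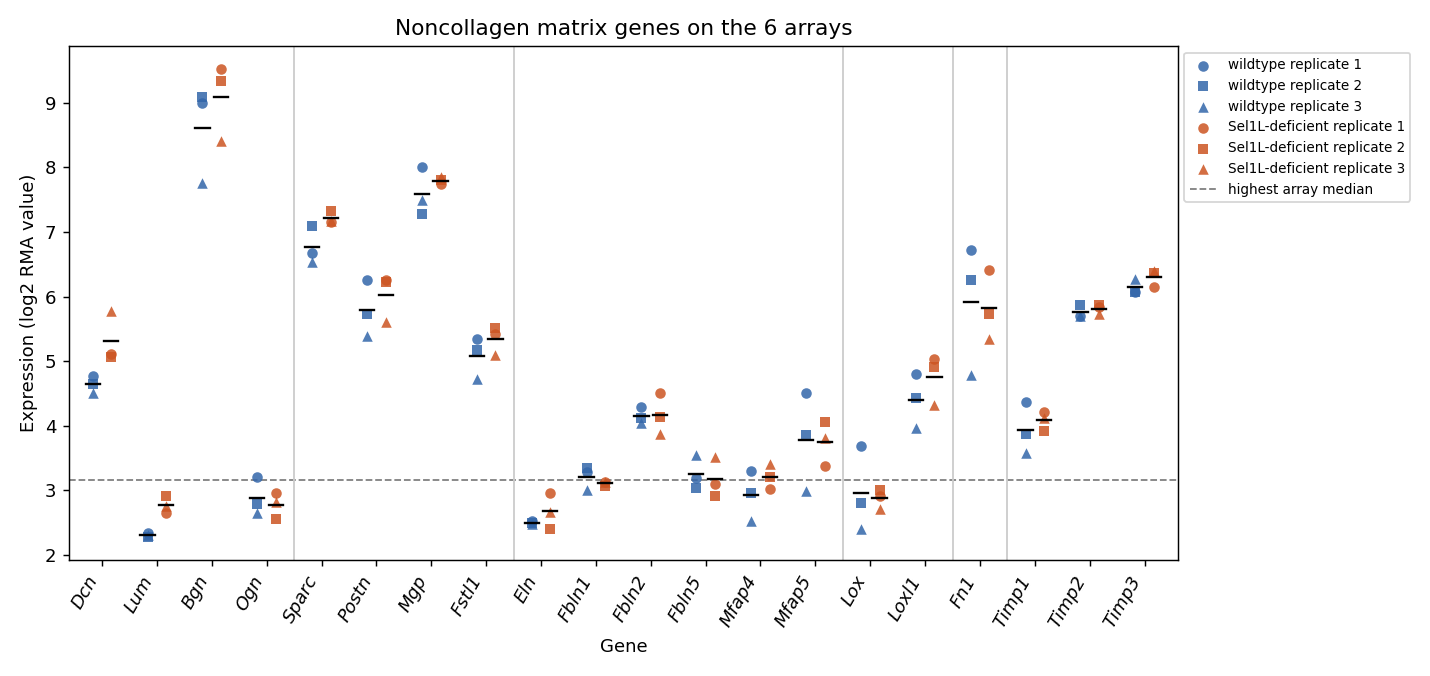
Log2 RMA values (vertical axis) of the 20 measured matrix genes on each array, wildtype in blue and Sel1L-deficient in orange, with group means as bars, replicate numbers as symbols and vertical lines between protein families. Dcn, Lum and Sparc separate by genotype, while Bgn, Fn1 and Loxl1 have replicate 3 lowest in both groups.

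These genes varied between replicate arrays more than most genes did. The within-group SD, pooled over both groups, had a median of 0.285 over the 33 and 0.159 over all genes. It exceeded the 90th percentile of all genes in 13 of 33 (39.4%), with Acta2 at 0.822, Fn1 at 0.812, Bgn at 0.67 and Mfap5 at 0.594 the highest. Wildtype replicate 3 was the lowest wildtype array in 25 of 33 genes, against 33.8% of all genes, and Sel1L-deficient replicate 3 was the lowest of its group in 16 of 33, against 32.2%. Replicate 3 was the lowest array in both genotypes in 14 of 33 genes, against 11.1% of all genes. Those 2 arrays carried the Y-linked transcripts and the highest acinar level, and the part of either in these values was not tested.

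Within the 4 arrays with female-type transcripts the median difference of the 33 was 0.17, with 23 above 0, and between the 2 arrays with Y-linked transcripts it was 0.25, with 28 above 0. Over all 22180 genes the medians were -0.0053 and 0.0082, with 10847 and 11408 genes above 0. In 19 genes the difference was above 0 in both, but the same count was not made over all genes, so agreement between the 2 parts was not tested. The 5 genes with an unadjusted p under 0.05 were chosen on these same arrays, so their within-part differences are a description: Rgs5 differed by 0.81 and 0.53, Dcn by 0.37 and 1.26, Lum by 0.48 and 0.46, Sparc by 0.36 and 0.64 and Myh11 by 0.26 and 0.36. With a covariate for the Y-linked transcripts 9 of the 33 had an unadjusted p under 0.05, all higher, beside 9.59% of all genes in either direction in that fit. The added ones were Acta2, Bgn, Fstl1 and Loxl1, and the smallest adjusted p was 0.133, for Rgs5 (limma). Omitting wildtype replicate 2 or 3 left a count of 3 of 33, all higher, beside 9.27% and 8.12% of all genes in either direction. The share of all genes in the higher direction was not taken in these fits. The median of all 33 dropped to 0.084 when wildtype replicate 3 was omitted and to 0.10 when Sel1L-deficient replicate 1 was, and stood at 0.28 with wildtype replicate 1 omitted. The median of the 5 contractile genes was 0.14 to 0.18 with 1 array left out, but it was the value of Myl9 in all of these fits except that without wildtype replicate 3, while Acta2 ran from 0.14 to 1.03 and Tagln from -0.19 to 0.10. Matrix genes, with a median of 0.17, gave 0.052 in the absence of wildtype replicate 3 and 0.34 in that of wildtype replicate 1. Pericyte and fibroblast genes, with a median of 0.15, gave 0.084 when wildtype replicate 3 was omitted, and 0.086 and 0.27 when Sel1L-deficient replicates 1 and 3 were omitted in turn.

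**Figure D4:**
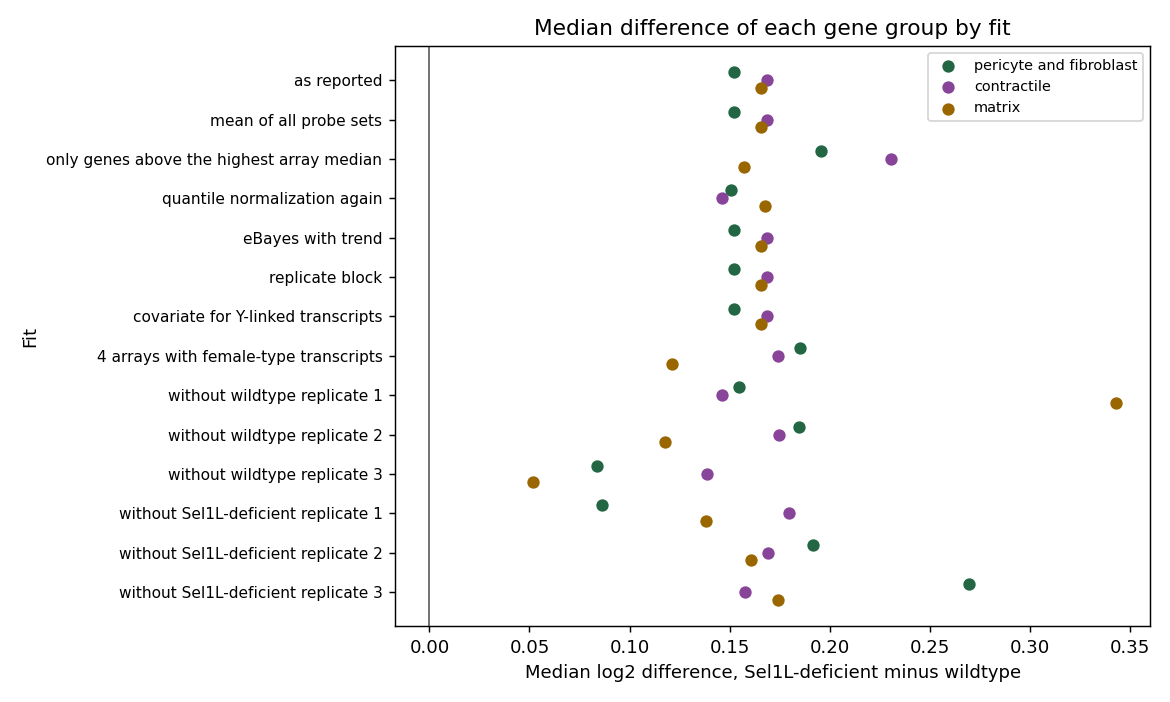
Median log2 difference (horizontal axis) of the pericyte and fibroblast, contractile and matrix genes under each fit (rows). All medians lie above 0, and those of matrix genes run from 0.052 (wildtype replicate 3 left out) to 0.34 (wildtype replicate 1 left out).

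Related genes outside the 35 likewise gave 0 calls in either direction. PDGF ligands and other mural genes (16 of 16 measured, 6 dim) had a median difference of 0.09, with 11 above 0 and a range of -0.30 to 0.33. The brightest were Anpep, an aminopeptidase of pericytes and epithelia, at 0.13 and the adhesion protein Mcam at 0.12. None of the 16 had an unadjusted p under 0.05. Pdgfb, the endothelial ligand of PDGFRβ, differed by 0.23 ± 0.12 (SE; limma adjusted p = 0.618). It was chosen after its value was seen, for its role beside Pdgfrb. Other stellate and fibroblast genes (12 of 13 measured, 6 dim) had a median of 0.06, with 8 above 0, and 0 had an unadjusted p under 0.05. The brightest were the intermediate filament Vim at 0.26 and Cygb, a globin of stellate cells, at 0.21. Other contractile genes (11 of 11 measured, 7 dim) had a median of 0.12, with 8 above 0. Across all genes 4.45% were higher at an unadjusted p under 0.05. Of these 11 contractile genes 3 had such a p, all higher in Sel1L-deficient islets. Cald1, caldesmon, was one of them at 0.40 (limma adjusted p = 0.508), while Srf differed by -0.02. Other noncollagen matrix genes (24 of 25 measured, 5 dim) had a median of 0.17, and 5 had an unadjusted p under 0.05, all higher. The most abundant by mean were Thbs1, thrombospondin-1, which differed by 0.65 (limma adjusted p = 0.439), and Sparcl1, a relative of Sparc, by 0.16.

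Markers of endothelial cells, the neighbours of pericytes, were also mostly higher in Sel1L-deficient islets. Of 14 measured, 13 had a difference above 0 and 0 passed the threshold, with a median of 0.38. At an unadjusted p under 0.05, 7 were higher and 0 lower, where 4.45% of all genes were higher. The mean log2 level of the 14 markers was 5.69 to 6.06 on the wildtype and 6.08 to 6.28 on the Sel1L-deficient arrays, and Cldn5 was the 1 dim marker. Kdr, the VEGF receptor, differed by 0.55 and Emcn, endomucin, by 0.36 (limma adjusted p = 0.266 and 0.355). The mean log2 level of the 33 genes was 4.19 to 4.60 in wildtype and 4.47 to 4.68 in Sel1L-deficient islets, so it overlapped. β-cell markers went the other way: 4 of 9 measured passed the threshold as lower (Mafa, Ucn3, Slc2a2 and G6pc2) and 0 as higher. All 9 had every wildtype array above every deficient array, as 7.84% of all genes did. The mean level of these markers was 9.73 to 10.00 in wildtype and 8.90 to 9.08 in Sel1L-deficient islets. The part of endothelial or β-cell content in the values of the supporting-cell genes was not tested.

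Other cell types had 0 calls. The leukocyte list (8 of 8 measured, 4 dim) had a mean level of 3.46 to 3.87 in wildtype and 3.52 to 3.66 in Sel1L-deficient islets, with Cd68 at -0.02 and Lyz2 at -0.31. Schwann cell markers (6 of 8, 1 dim) ranged from 3.30 to 3.37 and from 3.21 to 3.65, with Erbb3 and Ngfr at 0.14 and 0.11. Of 5 mesothelial markers 4 were dim, the list ranged from 3.08 to 3.29 and from 3.01 to 3.33, Msln differed by -0.52 (limma adjusted p = 0.449) and Upk1b by 0.06. Acinar genes ranged from 7.73 to 9.70 and from 6.97 to 9.57, with Ctrb1 at -0.49 and Cpa1 at -0.75 and overlapping groups. Duct genes (5 of 6, 1 dim) ranged from 4.36 to 4.60 and from 4.08 to 4.52, with Krt7 at -0.12 and Muc1 at -0.20. Among α- and δ-cell genes, Gcg differed by 0.03, Irx2 by 0.27, Sst by -0.03 and Hhex by 0.14, over list levels of 9.34 to 9.53 and 9.52 to 9.67 for α cells and 8.38 to 8.52 and 8.39 to 8.66 for δ cells.

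**Figure D5:**
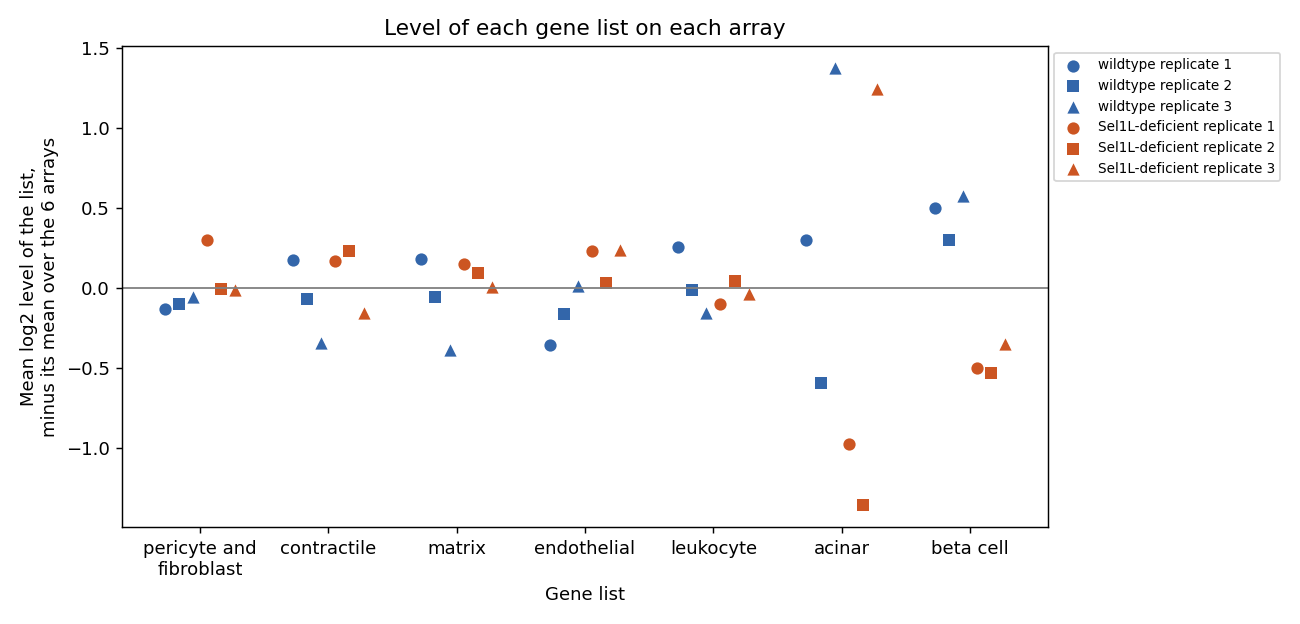
Mean log2 level of each gene list on each array, minus the list's mean over the 6 arrays (vertical axis), wildtype in blue and Sel1L-deficient in orange with replicate numbers as symbols. Acinar genes are highest on both replicate 3 arrays, where contractile and matrix genes are lowest within each genotype, and endothelial genes lie higher on the deficient arrays.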

How the data were processed

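Expression was measured in 6 islet samples on Affymetrix arrays. The authors summarised the probes with RMA, per the submitters' processing notes, and the deposited values were taken as log2 because they lie between 0.526 and 13.0. RMA version, filters and log base are not given in the sources used here. Of 41345 probe sets, 23521 had 1 gene symbol in the platform annotation, 1814 had several and 16010 were unnamed here. Each gene took its probe set with the highest mean. 23328 Entrez identifiers matched RefSeq (GRCm38.p6), which changed 0 symbols.

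limma 3.58.1 in R 4.3.3 (lmFit, eBayes, two-sided) compared the genotypes over all 22180 genes with Benjamini-Hochberg adjustment. Errors are SD over 3 arrays or limma's SE, and folds are 2 to the power of the difference. The number of arrays limits the precision. Tested on 20 simulations with mixed sizes, the fit found 14.0%, 66.9% and 95.9% of genes changed by 0.5, 1 and 2 on the log2 scale. The changed genes were drawn at random from all genes, whose median within-group SD was 0.159, against 0.285 for the 33. Rates for the 33 alone were not obtained. RMA can pull large ratios toward 1.

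The members and lists were chosen with earlier results of these data known. Named in full were members at an unadjusted p under 0.05 and the 2 brightest of each subgroup, and of other lists the called genes (at most 4) or the 2 brightest. Alternatives covered the probe set, a filter on dim genes, normalization, the variance prior, a replicate block, Y-linked transcripts and each array left out.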

Additional observations from a re-analysis of the deposited data

How the results depend on the processing

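In all 13 alternatives 0 of the 33 genes passed the threshold, with a smallest adjusted p of 0.125 (limma, Rgs5 with the replicate block). Of 421 values of single genes under an alternative, 23 had the other sign, from 12 genes whose difference as reported was at most 0.29 in size, and the cause was not tested. On the 4 arrays with female-type transcripts these were Tcf21 (0.11), Tagln (0.0036), Mfap4 (-0.014) and Timp1 (-0.061). Over the fits that left out 1 array, the ranges of the genes that turned were -0.11 to 0.34 for Abcc9, -0.11 to 0.41 for Thy1, -0.12 to 0.084 for Tcf21, -0.19 to 0.10 for Tagln, -0.21 to 0.063 for Ogn, -0.15 to 0.17 for Fbln2, -0.26 to 0.056 for Fbln5, -0.44 to 0.33 for Mfap5, -0.37 to 0.28 for Lox, -0.66 to 0.31 for Fn1 and -0.042 to 0.36 for Timp1.

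Genes at an unadjusted p under 0.05 numbered 9 of 33 with the replicate block and 9 with the Y-linked covariate, beside 9.73% and 9.59% of all genes. With 1 array left out they numbered 3 to 7, beside 7.84% to 9.82%. These shares of all genes count either direction, while the members counted were all higher. Among all genes 54 passed, 98 with a variance trend, 1 on the 4 arrays alone and 4 to 29 with 1 array left out, the smaller sets having fewer samples. The medians of the 33 genes and of their 3 groups stayed above 0 in every alternative.

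Replicates share numbers in the labels, but nothing there says that a number marks a shared litter or day. Deviations from the group means correlated at 0.105, 0.072 and 0.21 between arrays of the same number, and from -0.13 to 0.041 between unlike numbers. The largest was for replicate 3, whose arrays shared the Y-linked transcripts and the highest acinar level. Deviations within a group balance around its mean, so these correlations are not independent and do not establish pairing. With the replicate block 36 genes passed among all genes, 28 of them shared with the 54.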
